A study of Mus musculus with 30 samples.

Results

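The bacterial families Rikenellaceae and Marinifilaceae were followed in mouse stool through 4 genera, g__Alistipes, g__Rikenella and g__Rikenellaceae_RC9_gut_group of the Rikenellaceae, and g__Odoribacter of the Marinifilaceae. Members were all 16S rRNA sequence variants whose deposited taxon name held either family and that had reads in at least 1 of the 30 libraries. These were 47 of the 949 bacterial variants with reads, and they held 78541 of 1122553 bacterial reads (7.0%). The 20 libraries taken at weaning and after co-housing held 25 of them, namely 15 Alistipes, 3 Rikenella, 3 RC9 gut group and 4 Odoribacter variants. The 10 libraries taken after re-separation held 22, namely 13, 3, 2 and 4. No variant had reads in both sets of libraries, so variants were compared within a set and genera across both. The table named a further 76 variants of these families that had 0 reads in all libraries, among them the 1 Butyricimonas variant, so the Marinifilaceae were here Odoribacter alone. The authors' table was used without variant sequences, and a variant is identified by genus and row number.

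Bacterial 16S rRNA genes, which all bacteria carry, were sequenced over their V4 region from stool of female mice deficient for Gpr15l (Gpr15l-/-, here KO) and of wild-type (WT) females. Gpr15l encodes an epithelial peptide of gut and skin that is a ligand of the lymphocyte receptor GPR15. At about 4 weeks of age the mice were placed at random into cages holding both genotypes, 2 to 7 mice per cage, for 4 to 5 weeks, and the genotypes were then kept apart for 6 weeks more. Each group held 5 libraries: KO 1 to 5 and WT 6 to 10 at weaning, KO 11 to 15 and WT 16 to 20 after co-housing, KO 21 to 25 and WT 26 to 30 after re-separation. The labels give neither cage nor litter and do not link a mouse at one time to the same mouse at another, so p-values measure the spread between these samples, which may be partly technical. Libraries of a group may come from mice of the same litter or cage, and the same mice may recur over time. The tests took all libraries as independent. A genotype difference at weaning cannot be told apart from a difference of litter or cage of origin. Libraries held 10560 to 73776 reads, those of re-separation 39735 to 73776 and the others 10560 to 52398. The re-separation libraries carried another kind of library name, so a comparison that reaches into them cannot tell the time point from the set of libraries.

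Rikenellaceae and Odoribacter are strictly anaerobic members of the order Bacteroidales that live in the large intestine of mice and humans. Alistipes and Rikenella ferment proteins and sugars, with succinate, acetate or propionate among their products. Odoribacter forms acetate, propionate and butyrate, and the RC9 gut group is a lineage known mainly from sequences of animal guts. Mice eat faeces, so gut bacteria pass between mice that share a cage.

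Shares are percentages of all reads other than those of mitochondria, and group values are means ± SD over 5 libraries. A lower share can come from fewer bacteria of that kind or from more of the others, and a share of reads also follows the number of 16S copies per cell; these cannot be told apart here. Over the 30 libraries Alistipes averaged 3.6%, Odoribacter 1.6%, the RC9 gut group 0.699% and Rikenella 0.622%, which placed them 7th, 11th, 23rd and 24th among genera. Together the members made up 4.03% ± 2.63 of KO and 7.01% ± 2.85 of WT reads at weaning. The corresponding KO and WT means were 4.61% ± 2.62 and 6.56% ± 1.41 in co-housed mice, then 7.25% ± 2.17 and 9.65% ± 2.95 in re-separated mice. The KO mean was the lower of the pair each time, and the ranges overlapped each time. In KO libraries at weaning Alistipes held 72.0% ± 9.5 of the members' reads and the RC9 gut group 0.825% ± 0.928, against 58.7% ± 11.7 and 15.4% ± 9.21 in WT libraries. After re-separation Alistipes held 42.8% ± 13.5 in KO and 51.9% ± 4.95 in WT, and Odoribacter 28.8% ± 9.32 and 28.3% ± 3.26.

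Some libraries stood apart. Library 1, a KO library at weaning, held 83 member reads of 21133 (0.393%) and 4 member variants, where the other 4 KO libraries of that time held 3.29% to 7.7% and 8 to 14 variants. Over variants that are not members, the co-housed libraries 11 (KO) and 19 (WT) lay closer to the WT libraries of weaning (mean Bray-Curtis distances 0.396 and 0.401) than to the rest of their own group (0.546 and 0.558). Library 5 (KO, weaning) was the shallowest, with 10560 reads, and lay at 0.613 from its own group. Where leaving out these 4 libraries together added or ended a call, the adjusted p without them is given beside the result.

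At weaning, g__Rikenellaceae_RC9_gut_group and g__Odoribacter were lower in KO than in WT mice. The RC9 gut group stood at 0, 0.0822, 0.0411, 0.0513 and 0% in KO libraries 1 to 5 and at 0.532, 1.1, 1.19, 1.67 and 0.527% in WT libraries 6 to 10. Every WT library was above every KO library, and the 0 reads of libraries 1 and 5 allow shares of up to 0.0142% and 0.0286% (3 counts, counting error only). The means were 0.0349% ± 0.0353 and 1.0% ± 0.484, and the log2 fold change of KO over WT was -5.44 ± 1.08 (SE; edgeR quasi-likelihood adjusted p = 0.000138). Odoribacter stood at 0.142, 0.261, 0.446, 0.0815 and 0.248% in KO and at 0.353, 1.01, 3.0, 0.588 and 1.3% in WT libraries. The groups overlapped by 1 library on each side, and WT library 8 was far above the others. The means were 0.236% ± 0.139 and 1.25% ± 1.05, with a WT mean of 0.812% without library 8, and the log2 fold change was -3.33 ± 0.83 (edgeR adjusted p = 0.00172; -2.81 without library 8).

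g__Alistipes and g__Rikenella did not pass the test at weaning. Alistipes ranged over 0.241 to 6.53% (median 2.63%) in KO libraries and, in WT, over 2.07 to 6.73% (median 3.63%), with a log2 fold change of -1.25 ± 0.64 (edgeR adjusted p = 0.13). DESeq2 and limma-voom, as alternatives, each called Alistipes lower in KO, and the adjusted p was 0.0323 at the lowest over the 19 alternatives. Rikenella ranged over 0.00946 to 1.07% (median 0.791%) in KO libraries and, in WT, over 0.271 to 0.964% (median 0.556%), with a log2 fold change of -0.53 ± 0.79 (edgeR adjusted p = 0.676). Its sign turned to 0.28 when libraries were scaled by total reads alone, in step with the higher KO mean share (0.677% ± 0.399 against 0.558% ± 0.261).

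So 2 of the 4 genera were called at weaning, both lower in KO, where 23.6% of the 72 genera tested were called (6 higher, 11 lower). The median log2 fold change of the 4 was -2.29 and that of all genera 0.0. Scaling by total reads alone moved the median of all genera to 0.42 and the values of the RC9 gut group and Odoribacter to -4.78 and -2.41, and both were still called. An exact two-sided permutation test on the shares gave p = 0.00794 for the RC9 gut group, the smallest that 5 against 5 libraries allow, and p = 0.0159 for Odoribacter. After adjustment over 72 genera both were at 0.19, since at least 12 genera would have to reach the smallest p for any to pass. Over the 19 alternatives the adjusted p ranged from 3.95e-09 to 0.19 for the RC9 gut group and from 5.56e-06 to 0.19 for Odoribacter. Of the 7 other Bacteroidales genera tested, 1 was called at weaning, unclassified Tannerellaceae, and it was higher in KO.

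**Figure D1:**
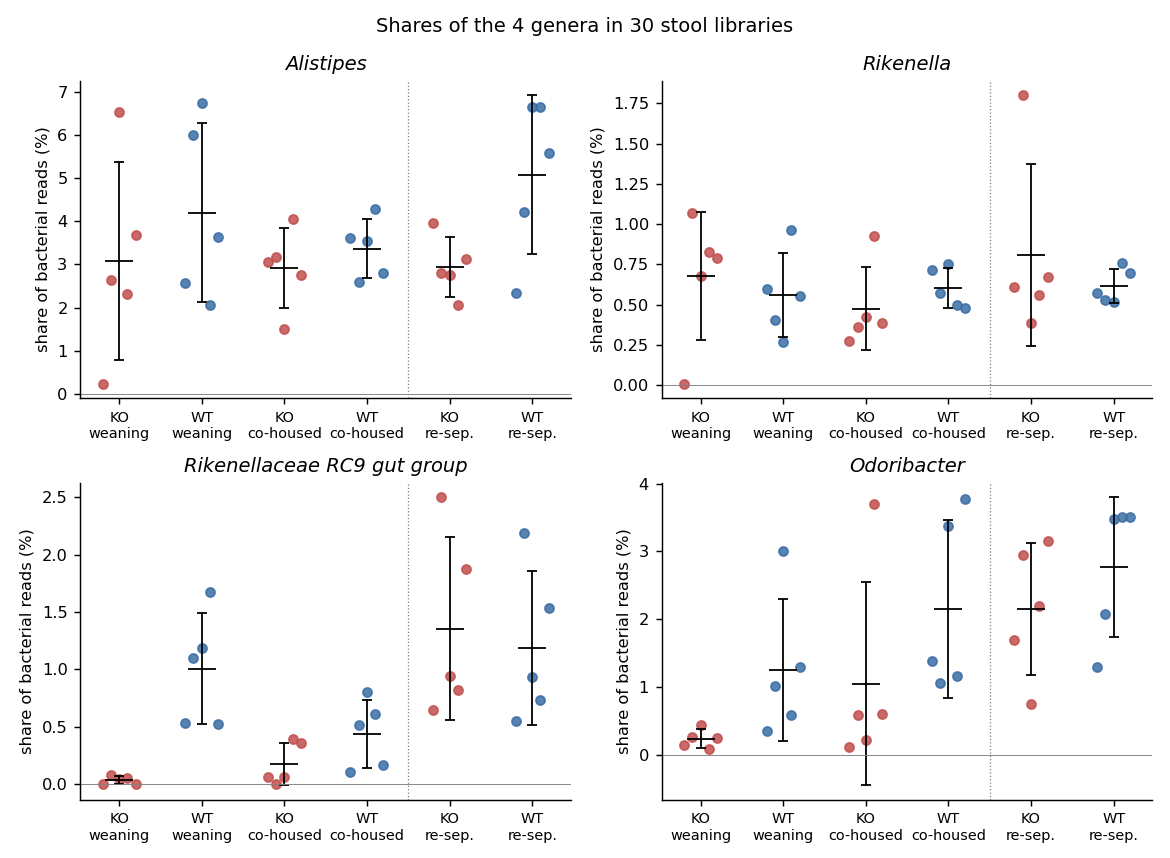
Shares of the 4 genera (y axis, percent of bacterial reads) in the 6 groups (x axis). Each point is 1 library (red KO, blue WT), the bar is the group mean and the whisker 1 SD on either side, n = 5; the dotted line parts the 2 library sets. At weaning the RC9 gut group is at most 0.0822% in KO and at least 0.527% in WT libraries, and KO library 14 has the highest Odoribacter share of the co-housed KO libraries, 3.7%.

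At family level both sums were called lower in KO at weaning, where 22.9% of the 35 families tested were called. Marinifilaceae, which are the Odoribacter reads again, had a log2 fold change of -3.1 ± 0.74 (edgeR adjusted p = 0.00198). Rikenellaceae stood at 3.79% ± 2.51 in KO and 5.76% ± 1.96 in WT libraries, with -1.47 ± 0.53 (edgeR adjusted p = 0.039). This second call was kept in 6 of 19 alternatives, and lost when library 1, 5, 7, 8 or 9 was left out (edgeR adjusted p from 0.0547 to 0.0903) and without libraries 1, 5, 11 and 19 together (0.159), with 0.021 to 0.389 over all alternatives.

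Of the 25 member variants, 21 had at least 10 reads in at least 3 of the 20 libraries and were tested; Alistipes rows 35, 55 and 142 and RC9 gut group row 167 were not. At weaning 8 of the 21 were called, 7 lower and 1 higher in KO, where 20.9% of all 292 variants tested were called (20 higher, 41 lower). The lower ones were Alistipes rows 137 and 36, Rikenella row 41, RC9 gut group row 165 and Odoribacter rows 97, 126 and 130, and the higher one was Rikenella row 42. Since 7 of these 8 had 0 reads in all 5 libraries of a genotype, their folds are lower bounds against a floor of 3 counts per library. Row 42 had reads in KO libraries alone and passed the read filter only through them, so its place among the tested variants already depended on its KO reads. Alistipes row 137, Rikenella row 41 and Odoribacter row 97 likewise passed it only through WT libraries. They had reads in every WT library of the set and in only 2 KO libraries, both co-housed.

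Alistipes row 137, the variant with the highest mean share of the set (0.742% over 20 libraries), stood at 0.851, 3.15, 0.77, 0.776 and 0.765% in WT libraries 6 to 10 and had 0 reads in KO libraries 1 to 5. It was at least 80.7-fold higher in WT (at least 50.5-fold without library 7; edgeR adjusted p = 0.000493). Alistipes row 36 was found in WT libraries 8, 9 and 10 at 1.64, 0.356 and 0.532% and in no KO library (at least 32.3-fold, 14.2-fold without library 8; edgeR adjusted p = 0.00291). Other abundant Alistipes variants were found in both genotypes and did not pass the test. Row 136 stood at 1.07% ± 0.795 in KO and 0.231% ± 0.381 in WT, row 140 at 0.729% ± 0.741 and 0.712% ± 0.426, and row 138 at 0.651% ± 0.773 and 0.428% ± 0.419 (edgeR adjusted p = 0.575, 0.829 and 1). Row 39 stood at 0.156% ± 0.125 and 0.447% ± 0.182 (edgeR adjusted p = 0.392). The genus thus held variants found in WT alone at weaning beside others found in both genotypes. Rows 35 and 55, which were not tested, had reads in KO alone at weaning, in 2 libraries (mean 0.0433%) and in 1 library (mean 0.00379%).

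In Rikenella, a variant without a species name was found in each genotype and not in the other. Row 41 stood at 0.387, 0.16, 0.126, 0.697 and 0.109% in WT libraries 6 to 10 and at 0 reads in every KO library (at least 18.9-fold, 12.5-fold without library 9; edgeR adjusted p = 0.00454). Row 42 stood at 0.2, 0.264, 0.377 and 0.448% in KO libraries 2 to 5 and at 0 reads in library 1 and in every WT library (at least 21.3-fold; edgeR adjusted p = 0.0185). Row 42 was no longer called when libraries 1, 5, 11 and 19 were left out (edgeR adjusted p = 0.0555; 0.00475 to 0.309 over all alternatives). Row 143, named Rikenella microfusus, was found in 10 of 10 weaning libraries, at 0.419% ± 0.308 in KO and 0.262% ± 0.113 in WT. The genus sum, which did not differ by the test, was made of row 143 with row 42 in KO and of row 143 with row 41 in WT.

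In Odoribacter, 3 of 4 variants had 0 reads in every KO library at weaning. Row 97 stood at 0.145, 0.639, 1.7, 0.133 and 0.9% in WT libraries (at least 44.9-fold, 29.0-fold without library 8; edgeR adjusted p = 0.00179). Row 126 stood at 0.0468 to 0.204% in 5 of 5 WT libraries (at least 7.5-fold; edgeR adjusted p = 0.00576), and row 130 at 0.0255 to 0.0715% in 4 of 5 (at least 2.79-fold; edgeR adjusted p = 0.0223). Row 130 was no longer called when library 3 was left out (edgeR adjusted p = 0.0516) or when libraries 1, 5, 11 and 19 were (0.0621), with 0.00243 to 0.309 over all alternatives. The fourth, row 102, was found in 20 of 20 libraries, and all Odoribacter reads of the KO libraries at weaning were its reads. Row 102 stood at 0.236% ± 0.139 in KO and 0.386% ± 0.409 in WT and was not called (edgeR adjusted p = 0.473).

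RC9 gut group row 165 stood at 0.46, 0.996, 1.12, 1.51 and 0.492% in WT libraries and at 0.0147 and 0.0393% in KO libraries 2 and 4, with 0 reads in the other 3. Its log2 fold change was -6.42 ± 1.79 (edgeR adjusted p = 0.0113), and without libraries 1, 5, 11 and 19 it was not called (0.058; 3.91e-07 to 0.129 over all alternatives). Row 166 of this genus, at 0.0217% ± 0.0312 in KO and 0.0868% ± 0.0466 in WT, was not called (edgeR adjusted p = 0.47).

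**Figure D2:**
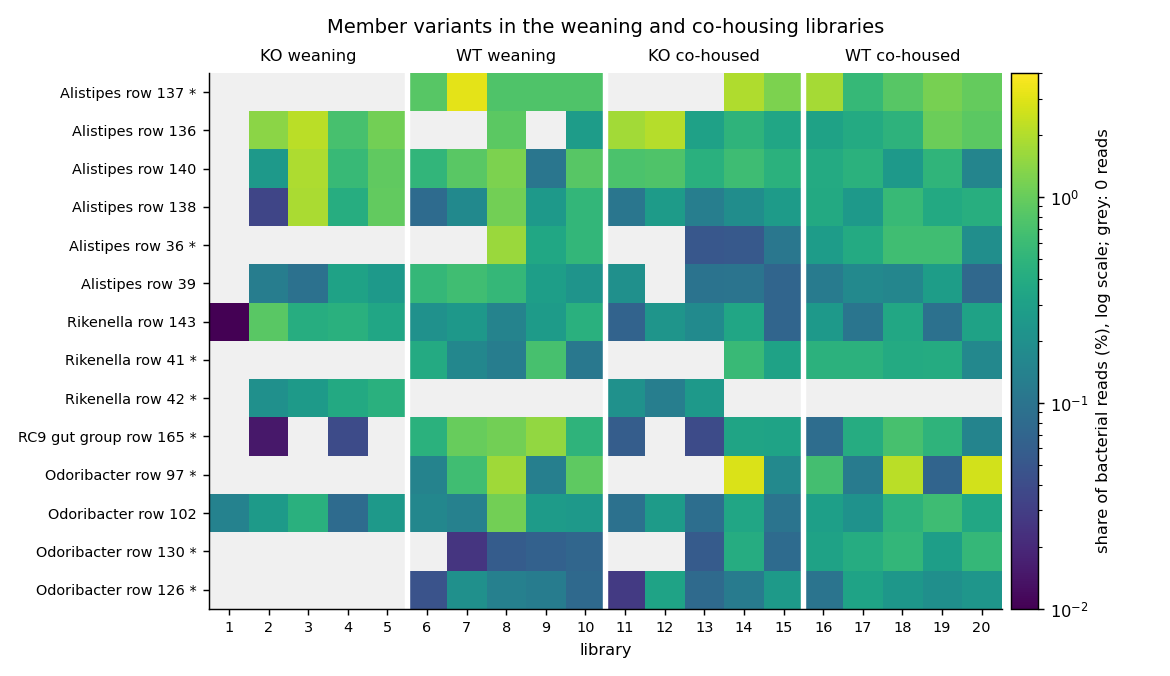
Shares of 14 member variants (rows of the picture) in libraries 1 to 20 (columns), as percent of bacterial reads on a log colour scale; grey marks 0 reads. An asterisk marks variants called in at least 1 comparison, and the others shown are among the 10 with the highest mean share. Rows 137, 41 and 97 fill the same 12 columns, and row 42 fills 7 others.

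Counting presence alone, 7 of the 24 member variants with reads at weaning (29.2%) were found in at least 3 WT libraries and in 0 KO libraries, and 1 (4.17%) in at least 3 KO and 0 WT libraries. Among the 313 other variants with reads at weaning these counts were 30 (9.58%) and 17 (5.43%). The 7 were the 6 WT variants named above with 0 KO reads and Alistipes row 37, named Alistipes obesi, at 0.0249% ± 0.0233 in WT. Row 37 was not called (edgeR adjusted p = 0.057), except with a filter of at least 10 reads in 5 libraries (0.0474; up to 0.523 over the alternatives). Rarefying every library to 10491 reads, or counting a variant as present from 10 reads, left the members' counts at 7 and 1. A WT library held 14 to 19 member variants at weaning and a KO library 4 to 14.

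After co-housing no genus was called between the genotypes in edgeR (0 of 4, and 0 with an unadjusted p under 0.05; 0 in DESeq2 and 0 in limma-voom), where 1.39% of 72 genera were called. Odoribacter stood at 0.122, 0.591, 0.224, 3.7 and 0.609% in KO libraries 11 to 15 and at 1.38, 1.06, 3.37, 1.17 and 3.77% in WT libraries 16 to 20. Library 14 lay within the WT range, and the other 4 KO libraries lay below every WT library. The log2 fold change was -1.09 ± 0.76 (edgeR adjusted p = 0.546), and the KO mean of 1.05% ± 1.5 was 0.386% ± 0.25 without library 14. Shares of the RC9 gut group were 0.0589, 0, 0.0656, 0.396 and 0.36% in KO and 0.106, 0.512, 0.799, 0.614 and 0.168% in WT libraries (log2 fold change -1.47 ± 0.91, edgeR adjusted p = 0.518). KO libraries 14 and 15 lay within the WT range and libraries 11, 12 and 13 below it. Alistipes was at 2.91% ± 0.922 and 3.37% ± 0.679 (-0.35 ± 0.63, edgeR adjusted p = 0.916) and Rikenella at 0.475% ± 0.259 and 0.604% ± 0.126 (-0.36 ± 0.79, edgeR adjusted p = 0.964), with overlapping ranges. The median log2 fold change was -0.72 over the 4 genera and -0.26 over all.

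Neither family was called after co-housing (0 of 2 in edgeR, 0 with an unadjusted p under 0.05; 0 in DESeq2 and 0 in limma-voom), where 0.0% of 35 families were called; without library 14 Marinifilaceae were called lower in KO (edgeR adjusted p = 0.0362, against 0.382 with it, and up to 0.66 over the alternatives). Of the 21 member variants 0 were called (1 with an unadjusted p under 0.05, Rikenella row 42), where 1.03% of 292 were called. DESeq2 called 1, row 42, and limma-voom 1, Alistipes row 137.

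Co-housed KO libraries fell into unlike member profiles, a pattern described after the values were seen. Libraries 14 and 15 held Alistipes row 137 (1.96 and 1.24%), Rikenella row 41 (0.58 and 0.318%) and Odoribacter row 97 (2.82 and 0.169%), as every WT library did, and no Rikenella row 42. Libraries 11, 12 and 13 held 0 reads of rows 137, 41 and 97 and held row 42, at 0.208, 0.131 and 0.248%. Over all 20 libraries rows 41, 97 and 137 were found in the same 12, and row 42 in 7 others; rows 41 and 42 shared 0 libraries, and library 1 had neither. Row 42 was found in no co-housed WT library, while 14 of the 17 other variants found in KO alone at weaning (82.4%) had reads in at least 1. Its share was at least 10.9-fold higher in co-housed KO than WT libraries (at least 7.9-fold without library 13), a difference that was not called (edgeR adjusted p = 0.0882). By presence, 3 of 411 other variants (0.73%) were likewise found in at least 3 co-housed KO and 0 co-housed WT libraries.

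Of the 7 member variants that were found in WT alone at weaning, all 7 had reads in at least 1 co-housed KO library, as had 26 of the 30 other such variants. Libraries 11 to 15 held 2, 1, 4, 6 and 6 of the 7, and 10, 2, 12, 21 and 21 of the 30. Odoribacter row 126 alone among the 7 reached 5 of 5 co-housed KO libraries, at 0.0275, 0.323, 0.0802, 0.121 and 0.259%, a range that overlapped with its 0.101 to 0.324% in co-housed WT libraries. Alistipes row 36 was found in KO libraries 13, 14 and 15 at 0.051, 0.0531 and 0.107%, below each of the 5 WT libraries, which held 0.192 to 0.643%.

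**Figure D3:**
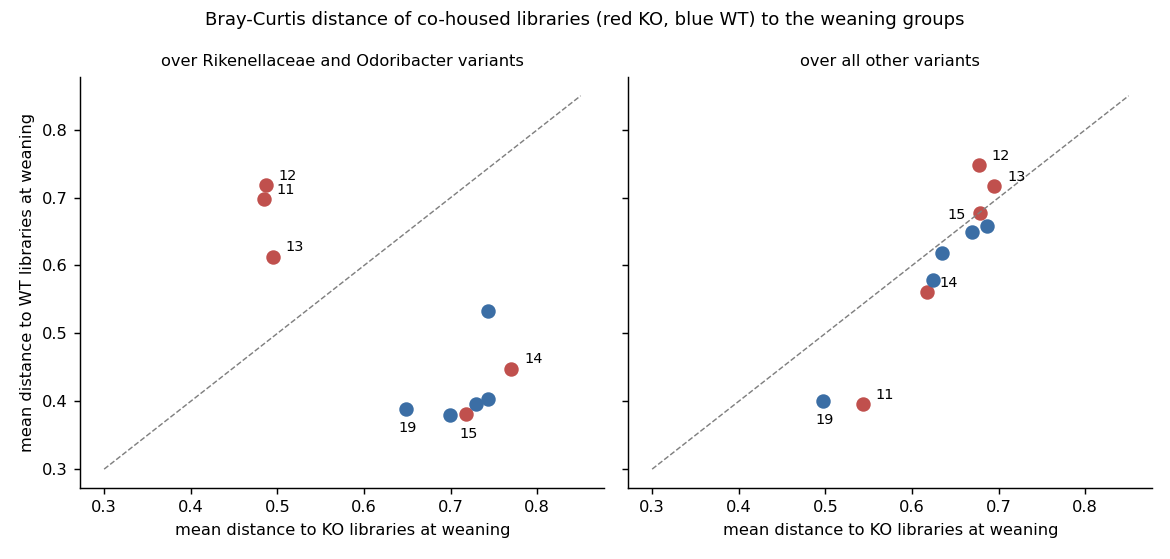
Mean Bray-Curtis distance of each co-housed library (red KO, blue WT; KO libraries and WT library 19 numbered) to the KO (x axis) and WT (y axis) libraries of weaning, over the proportions of member variants (left) and of all other variants (right). The dashed line marks equal distance. On the left, libraries 11, 12 and 13 lie nearer to KO and libraries 14 and 15, with the WT libraries, nearer to WT.

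The mean Bray-Curtis distance over member proportions to the KO libraries of weaning was 0.484, 0.487 and 0.495 for libraries 11, 12 and 13, and 0.77 and 0.718 for libraries 14 and 15. To the co-housed WT libraries it was 0.686, 0.657 and 0.552 for the first 3, and 0.315 and 0.323 for the last 2, where the co-housed WT libraries lay at 0.329 from each other on average. These distances include the variants by which the profiles were told apart, so they restate that split and do not test it. Over the variants that are not members, libraries 14 and 15 lay at 0.448 and 0.454 from the co-housed WT libraries and libraries 11, 12 and 13 at 0.51, 0.602 and 0.546. Over the same variants library 11 lay at 0.543 and 0.396 from the KO and WT libraries of weaning, and library 12 at 0.677 and 0.748. Library 13 lay at 0.695 and 0.717, library 14 at 0.617 and 0.561 and library 15 at 0.678 and 0.677. Whether libraries 14 and 15 shared a cage is not given in the labels, and its part was not tested.

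From weaning to co-housing in KO mice 1 of the 4 genera was called, Odoribacter, higher by 2.17 ± 0.79 on the log2 scale (edgeR adjusted p = 0.0322), where 31.9% of 72 genera were called. Leaving out library 14 put the adjusted p at 0.514, library 4 at 0.067 and library 1 at 0.0532, and it ranged from 0.0096 to 0.514 over the alternatives. The RC9 gut group, with 1.89 ± 0.94, was not called (edgeR adjusted p = 0.113), nor were Alistipes (-0.13 ± 0.63, 0.921) and Rikenella (-0.75 ± 0.79, 0.509). Neither family was called in KO (0 of 2 in edgeR, 1 with an unadjusted p under 0.05; 1 in DESeq2 and 0 in limma-voom), where 22.9% of 35 families were called; leaving out library 11 added Marinifilaceae (edgeR adjusted p = 0.0476 against 0.0862, and 0.0163 to 0.691 over the alternatives). Over the same interval 5 of the 7 other Bacteroidales genera were called lower in KO and 0 higher, and the order without the members went from 57.1% ± 19.2 to 23.4% ± 12.3 of reads. In WT 3 of the 7 were called lower and 0 higher, and the order without the members went from 69.3% ± 8.43 to 30.3% ± 16.7.

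Of the 21 member variants 6 were called in KO over this interval, all higher after co-housing, where 27.1% of 292 variants were called (66 higher, 13 lower). They were the 6 variants that had 0 reads in the KO libraries of weaning and were called there, Alistipes rows 36 and 137, Rikenella row 41 and Odoribacter rows 97, 126 and 130. From 0 reads they could only be called higher, so their shared direction was fixed in advance. As bounds against the weaning floor, row 137 was at least 40.8-fold higher (19.7-fold without library 14; edgeR adjusted p = 0.00208), and without library 14 alone the bounds of rows 97 and 41 moved from 38.1-fold to 2.69-fold (0.00395 with it) and from 11.5-fold to 5.07-fold (0.0115 with it). These 3 had reads in 2 of 5 co-housed KO libraries and 0 reads in the KO libraries of weaning. They thus passed the read filter only through WT libraries. With the groups of the contrast alone they were not tested, and that alternative is not counted for them. Row 126 was at least 10.4-fold higher in 5 of 5 libraries (7.79-fold without library 12; edgeR adjusted p = 0.00675), and rows 130 and 36, each found in 3 of 5, at least 7.0-fold (0.0161; 2.19-fold if library 14 is left out) and 2.7-fold (0.0225; 1.66-fold if library 15 is left out). Row 36 was not called without library 1 (0.0622) or 4 (0.0516), and its adjusted p ranged from 0.0159 to 0.586 over the alternatives. Limma-voom called rows 126 and 130 alone. Without libraries 1, 5, 11 and 19 the calls were rows 126 and 137, and rows 36 (0.0827), 41 (0.0504), 97 (0.0502) and 130 (0.0504) were not called. DESeq2 called 2 more, RC9 gut group row 165 (adjusted p = 0.019 against 0.0887 in edgeR) and Alistipes row 34 (4.98e-05 against 0.107). Row 34 was lower after co-housing, with 13 reads in 1 KO library at weaning and 0 in the co-housed ones.

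In WT mice over the same interval 0 of 4 genera were called in edgeR (1 with an unadjusted p under 0.05; 2 in DESeq2 and 0 in limma-voom), where 29.2% of 72 genera were called. In WT the RC9 gut group had means of 1.0% ± 0.484 and 0.44% ± 0.296, a log2 fold change of -2.07 ± 0.92 (edgeR adjusted p = 0.066; 0.0462 without library 19, 0.0155 without libraries 1, 5, 11 and 19, and 0.00962 to 0.274 over the alternatives). Odoribacter had 1.25% ± 1.05 and 2.15% ± 1.31 (-0.07 ± 0.75, edgeR adjusted p = 0.927). Alistipes, at an adjusted p of 0.188 in edgeR, was called lower after co-housing without libraries 1, 5, 11 and 19 (0.0185; 0.00962 to 0.656 over the alternatives). Scaled by total reads alone, the log2 value of Odoribacter turned to 0.78 and that of Rikenella from -0.92 to 0.11, while the median of all genera moved from 0.9 to 1.82. Neither family was called (0 of 2 in edgeR, 1 with an unadjusted p under 0.05; 1 in DESeq2 and 0 in limma-voom), where 37.1% of 35 families were called; Rikenellaceae, at an adjusted p of 0.0569, were called without library 6, 10, 16 or 19 (0.0301 to 0.0473) and without libraries 1, 5, 11 and 19 (0.0143; 0.0125 to 0.536 over the alternatives). Of the 21 variants 0 were called (1 with an unadjusted p under 0.05, Alistipes row 34; 1 in DESeq2, the same row, and 0 in limma-voom), where 0.685% of 292 were called.

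The change of the genotype difference from weaning to co-housing was tested as an interaction. No genus was called (0 of 4 in edgeR, 2 with an unadjusted p under 0.05; 1 in DESeq2 and 0 in limma-voom), where 4.17% of 72 genera were called. Nearest came the RC9 gut group, at 3.97 ± 1.31 (edgeR adjusted p = 0.0518), and it was called in 11 of 28 alternatives, 9 of which left out 1 library (library 2, 4, 6, 8, 10, 11, 12, 13 or 19; 0.0172 to 0.0485), with 0.0116 to 0.135 over all. Of the 21 variants 4 were called, all toward a smaller deficit in KO, where 6.16% of 292 were called (12 higher, 6 lower): Alistipes row 137 (edgeR adjusted p = 0.00521), Odoribacter rows 97 (0.0178) and 126 (0.0376) and Rikenella row 41 (0.044). All 4 had 0 reads in the KO libraries of weaning, so their change could only be toward a smaller deficit. Row 137 kept its call in 27 of 28 alternatives, row 97 in 24, row 126 in 17 and row 41 in 13. Exact permutation was not among these alternatives. Leaving out library 6, 7 or 12 added Alistipes row 36 (0.0374 to 0.0484 against 0.0612). Row 97 was not called without library 1 (0.0682) or 14 (0.0843), row 126 without any one of libraries 2, 3, 4 and 14 to 20 (0.0512 to 0.0822), and row 41 without any one of libraries 1 to 5, 9 and 14 to 20 (0.0554 to 0.083). Without libraries 1, 5, 11 and 19 neither row 41 nor row 97 was called (0.128 each). Over all alternatives the adjusted p reached 0.298 for row 137, 0.441 for row 97, 0.0822 for row 126 and 0.495 for row 41, and was 1.55e-22, 5.24e-17, 1.99e-06 and 0.00603 at the lowest.

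After re-separation 0 of 4 genera were called between the genotypes in edgeR (0 with an unadjusted p under 0.05; 0 in DESeq2 and 0 in limma-voom), where 0.0% of 72 genera were called and 5 had an unadjusted p under 0.05. The RC9 gut group stood at 0.645, 2.5, 0.938, 0.818 and 1.87% in KO libraries 21 to 25 and at 0.548, 2.19, 0.931, 0.73 and 1.53% in WT libraries 26 to 30 (log2 fold change 0.29 ± 0.89, edgeR adjusted p = 0.937). Odoribacter stood at 1.69, 2.94, 0.751, 2.2 and 3.15% in KO and at 1.29, 2.08, 3.47, 3.51 and 3.5% in WT (-0.13 ± 0.75, edgeR adjusted p = 0.986). Both ranges overlapped over most of their length. For Odoribacter, WT libraries 28, 29 and 30 lay above every KO library, and WT libraries 26 and 27 lay within the KO range. Alistipes stood at 2.94% ± 0.687 and 5.08% ± 1.83 (-0.48 ± 0.63, edgeR adjusted p = 0.808), with 4 of 5 WT libraries above every KO library, and Rikenella at 0.806% ± 0.566 and 0.615% ± 0.107 (0.61 ± 0.79, edgeR adjusted p = 0.808). The median log2 fold change was 0.08 over the 4 genera and -0.09 over all. Neither family was called (0 of 2 in edgeR, 0 with an unadjusted p under 0.05; 0 in DESeq2 and 0 in limma-voom), where 0.0% of 35 families were called.

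**Figure D4:**
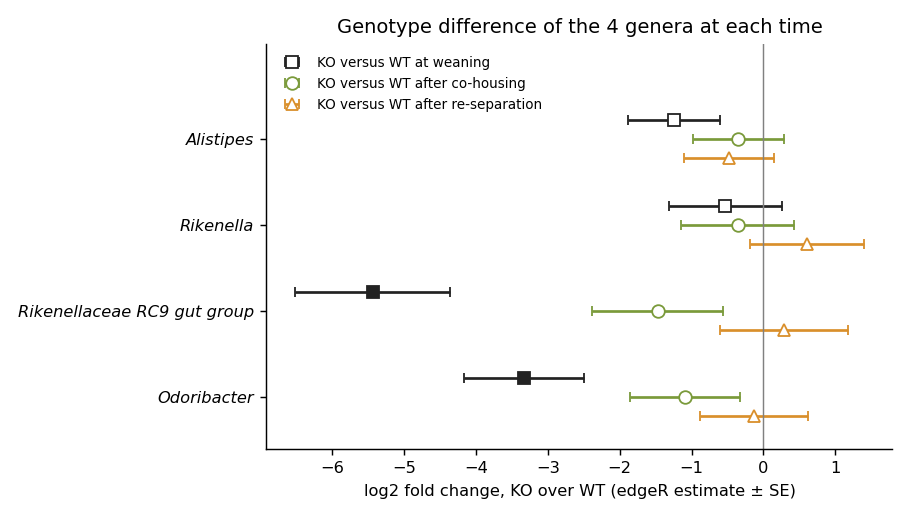
Log2 fold change of KO over WT (x axis, edgeR estimate ± SE, 5 libraries per group) of the 4 genera at weaning (squares), after co-housing (circles) and after re-separation (triangles). Filled symbols passed an adjusted p of 0.05 over 72 genera. The filled symbols are the RC9 gut group (-5.44) and Odoribacter (-3.33) at weaning.

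The genotype difference of 2 genera differed between re-separation and weaning by the interaction test, where 18.1% of 72 genera were called. The RC9 gut group changed by 5.73 ± 1.35 on the log2 scale (edgeR adjusted p = 0.00369) and kept its call in 28 of 28 alternatives. Exact permutation was not run on changes of the genotype difference. Odoribacter changed by 3.2 ± 1.09 (edgeR adjusted p = 0.0366) and kept its call in 18 of 28. It was lost without any one of libraries 1, 8, 21, 22, 24, 26, 27 and 29 (edgeR adjusted p from 0.0507 to 0.0823), with limma-voom and with scaling by total reads (0.00444 to 0.172 over all alternatives). Between re-separation and co-housing the genotype difference changed for 0 of 4 genera (0 with an unadjusted p under 0.05; 0 in DESeq2 and 0 in limma-voom), where 0.0% of 72 genera were called.

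From co-housing to re-separation in KO mice the RC9 gut group rose from 0.176% ± 0.186 to 1.35% ± 0.797, a log2 fold change of 3.37 ± 0.97 (edgeR adjusted p = 0.0136), the 1 call among 4 genera where 19.4% of 72 were called. It kept this call in 18 of 18 alternatives, and every KO library after re-separation was above every co-housed KO library. Exact permutation was not among these alternatives. Odoribacter, at 1.05% ± 1.5 and 2.15% ± 0.975, was not called (1.58 ± 0.77, edgeR adjusted p = 0.134), although it was in 3 of 18 alternatives, 1 of which left out library 14 (0.0162; 0.012 to 0.36 over all). The family Marinifilaceae was called (1.92 ± 0.71, edgeR adjusted p = 0.0483), where 20.0% of 35 families were called, and lost without any one of libraries 11, 12, 13, 15, 21, 22, 24 and 25 (0.0529 to 0.117; 0.00186 to 0.314 over all alternatives). Without libraries 1, 5, 11 and 19 Marinifilaceae were not called (edgeR adjusted p = 0.0583) and Rikenellaceae were called higher (0.0332 against 0.0891; 0.0332 to 0.458 over the alternatives). Over this interval 4 of the 7 other Bacteroidales genera were called higher in KO and 0 in WT. The WT mean of the RC9 gut group was also higher, at 1.19% ± 0.673 after 0.44% ± 0.296 (1.6 ± 0.91, edgeR adjusted p = 0.459). Its genotype difference changed by 1.77 ± 1.26 (edgeR adjusted p = 0.896), which was not called. Time cannot be told apart from the set of libraries over this interval. In WT mice 0 of 4 genera (0 with an unadjusted p under 0.05; 0 in DESeq2 and 0 in limma-voom) and 0 of 2 families (likewise 0, 0 and 0) were called, where 1.39% of 72 genera and 5.71% of 35 families were called.

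The re-separation libraries held 22 member variants, of which 21 were tested and 1, row 569 with reads in library 27 alone, was not. None of the 21 was called between the genotypes in edgeR (2 with an unadjusted p under 0.05, Rikenella row 649 and Alistipes row 809), where 1.44% of 278 variants were called. DESeq2 called 1 and limma-voom 1, in both Rikenella row 649, which edgeR called without library 23 (adjusted p = 0.0217; 0.00041 to 0.282 over the alternatives). A KO library held 19 to 21 of the 22 and a WT library 18 to 21. By mean share Alistipes row 806 led with 1.2%, found in KO at 0.286 to 2.42% and in WT at 0.491 to 2.74%. Odoribacter row 755 followed, also with 1.2%, at 0.26 to 1.57% in KO and 0.586 to 2.22% in WT. RC9 gut group row 872 averaged 1.13%, at 0.553 to 2.37% and 0.442 to 1.89%, so each genus had a leading variant present in 10 of 10 libraries.

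Further down the list, Alistipes row 807 was found in 9 of 10 libraries, at 0 to 1.27% in KO and 0.959 to 2.55% in WT. Odoribacter row 796 (0.578% on average), Rikenella row 648 (0.475%), Odoribacter row 762 (0.41%) and Alistipes rows 809 (0.405%), 638 (0.394%) and 811 (0.363%) were found in 10 of 10 libraries. Alistipes row 809 stood at 0.113, 0.324, 0.203, 0.0881 and 0.154% in KO and at 0.188, 0.277, 0.936, 1.13 and 0.645% in WT libraries, a log2 fold change of -1.87 ± 0.59 (edgeR adjusted p = 0.149). The 10 leading member variants held 84.9% of the member reads of these libraries, as the 10 leading ones of the first set held 81.5%.

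**Figure D5:**
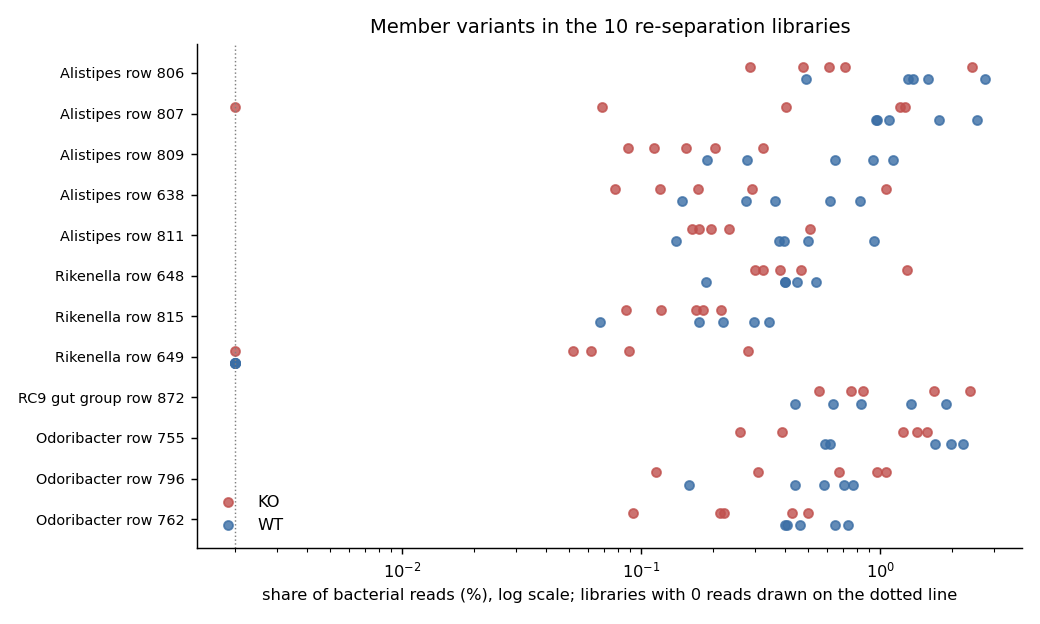
Shares of 12 member variants in the 10 re-separation libraries (x axis, percent of bacterial reads, log scale; red KO, blue WT, 5 libraries each), with libraries of 0 reads drawn on the dotted line. Shown are the 10 variants with the highest mean share and the other Rikenella variants. Row 649 has points in 4 KO libraries and all 5 WT libraries on the dotted line; the other variants overlap between the genotypes.

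As in the first set of libraries, Rikenella held a variant found in KO mice alone. Row 649 stood at 0.062, 0.281, 0.0519 and 0.0889% in KO libraries 21, 22, 24 and 25, with 0 reads in library 23 and in all 5 WT libraries (at least 16.9-fold, 8.85-fold without library 22; edgeR adjusted p = 0.105). Unlike rows 41 and 42, it shared its libraries with the other unnamed Rikenella variant, row 648, which was found in 10 of 10 libraries at 0.187 to 1.3%. Like row 42, row 649 passed the read filter through KO libraries alone. Whether rows 42 and 649 are the same sequence is not known, since no variant was shared between the sets and no sequences came with the table. By presence alone 1 of 22 member variants was found in at least 3 KO and 0 WT libraries and 0 in WT alone, against 8 and 10 of 444 other variants. Counting presence from 10 reads, 2 of 21 members (9.52%), rows 649 and 814, were found in KO alone, against 9 of 352 others (2.56%); Alistipes row 814 had 4 and 8 reads in 2 WT libraries.

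By level, Alistipes was the most abundant of the 4 genera in each of the 6 groups and Odoribacter the second in 5; in KO libraries at weaning Rikenella (0.677% ± 0.399) stood above Odoribacter (0.236% ± 0.139). For the RC9 gut group the order of group means from low to high was KO weaning, KO co-housing, WT co-housing, WT weaning, WT re-separation and KO re-separation. Neighbours in that order overlapped. For Odoribacter it was KO weaning (0.236%), KO co-housing (1.05%), WT weaning (1.25%), WT co-housing and KO re-separation (2.15% each) and WT re-separation (2.77%), and each group overlapped with the next.

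The genera whose shares ran most like the members over the 20 weaning and co-housing libraries, of 68 others tested, are given by Spearman's rho as a description. For Odoribacter these were the Clostridia vadinBB60 group (0.73, and 0.76 over the 10 re-separation libraries) and unclassified Flavobacteriaceae (0.68 and 0.26). For the RC9 gut group they were unclassified Flavobacteriaceae (0.6 and 0.56) and Clostridia UCG-014 (0.56 and 0.31). For Alistipes they were Clostridia UCG-014 (0.45 and 0.68) and the Family XIII AD3011 group (0.43 and 0.48), and for Rikenella Muribaculaceae (0.42 and 0.05) and Tyzzerella (0.39 and 0.26). Between members, rho over the 20 libraries was 0.58 for the RC9 gut group with Odoribacter, 0.52 for Alistipes with Odoribacter and -0.05 for Alistipes with Rikenella. Libraries share their group and, as shares of one total, are not independent in these values.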

How the data were processed

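The authors deposited 1 table of read counts per sequence variant with its taxon names; the table's name points to DADA2. R 4.5.1 and limma are listed without a role in the submitters' processing notes, and the taxonomy reference is not given in the sources used here. All 30 count columns were used (0 left out), without 4 mitochondrial variants. Counts were summed per genus and family and tested with edgeR 4.0.16 (quasi-likelihood, TMMwsp scaling, Benjamini-Hochberg at 0.05) in R 4.3.3, over features with at least 10 reads in at least 3 libraries; variants were fitted within their library set. Log2 fold changes are relative to that scaling. Alternatives used RLE or total-read scaling, other filters, DESeq2 1.42.0, limma-voom (limma 3.58.1), the groups of the contrast alone, exact permutation, and libraries left out. A count of 0 was set against a floor of 3 counts per library; floors cover counting error only, since PCR copies of a molecule are counted as separate reads. Variants named in full were those called in a comparison and the 10 highest by mean share in each library set; others named were chosen after their values were seen, as were the patterns of rows 41, 42, 97 and 137. Members and lists were chosen with earlier results of these data known. The fits were tested on simulated data. Python 3.11.15 (pandas 2.3.3, numpy 2.4.6, scipy 1.17.1, matplotlib 3.10.9) made the tables and figures.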

Additional observations from a re-analysis of the deposited data

Results flagged for a closer look

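Library 14, a co-housed KO library, lay far above the other 4 libraries of its group in 3 measures. Its share was 3.7% for Odoribacter, 0.927% for Rikenella and 9.08% for all members. After re-separation KO library 22 lay far above its group in Rikenella, at 1.8%. For normally distributed values chance sets a library apart in this way in about 1 of 20 groups, and 30 groups of values were looked at. Whether these shares are so distributed was not tested. The share of all members includes Odoribacter and Rikenella, so the 3 measures are not independent.

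The KO to WT difference changed between times by an interaction test in edgeR for 2 genera and 4 variants. From weaning to re-separation it changed for the RC9 gut group (adjusted p = 0.00369, log2 5.73 ± 1.35) and for Odoribacter (adjusted p = 0.0366, log2 3.2 ± 1.09). Over all 72 genera 18.1% were called. The RC9 gut group kept its call in 28 of 28 alternatives and Odoribacter in 18 of 28. From weaning to co-housing it changed for Alistipes row 137 (edgeR adjusted p = 0.00521), Odoribacter rows 97 (0.0178) and 126 (0.0376) and Rikenella row 41 (0.044), of which rows 41, 97 and 137 had reads in 2 of 5 co-housed KO libraries and row 126 in 5 of 5. Over all 292 variants 6.16% were called. Row 41 kept its call in 13 of 28 alternatives, the fewest of the 4. All 4 had 0 KO reads at weaning, so their change could only be toward a smaller deficit in KO.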

How the results depend on the processing

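Of 27 single calls, 0 changed direction in 562 alternative fits. In 456 fits the call was kept and in 106 it was not. Many of these calls set a group with 0 reads in every library against another group, so refits of the same counts could hardly turn their direction. The calls of Marinifilaceae rest on the Odoribacter reads again. The RC9 gut group kept its call under every alternative run from co-housing to re-separation in KO, and in its change from weaning to re-separation. Exact permutation, under which no member call was kept, was run on neither of these. Counts below are of member genera, families or variants called. At weaning the 2 genera became 3 with DESeq2 and limma-voom and 0 under exact permutation. From weaning to co-housing in KO the 1 genus became 0 with RLE scaling, limma-voom, the contrast's groups alone and permutation, and 0 to 1 with 1 library left out; in WT 0 became 1 with RLE and with the contrast's groups alone, 2 with DESeq2 and without libraries 1, 5, 11 and 19, and 0 to 1 with 1 library left out. From co-housing to re-separation in KO 1 became 2 with DESeq2 and limma-voom, and 1 to 2 with 1 left out. For changes of the genotype difference, 0 from weaning to co-housing became 1 without a filter and with DESeq2 (0 to 1 with 1 left out), and 2 from weaning to re-separation became 1 with total-read scaling and limma-voom (1 to 2). The 2 families at weaning became 1 with RLE, total reads, either other filter, limma-voom, the contrast's groups alone and without the 4 libraries, 0 under permutation, and 1 to 2 with 1 left out. For families after co-housing the range with 1 left out was 0 to 1. From weaning to co-housing 0 families became 1 in KO with total reads and DESeq2 and in WT with RLE, DESeq2 and without the 4 libraries (both 0 to 1 with 1 left out). From co-housing to re-separation in KO 1 family became 0 with RLE, total reads, either other filter and the contrast's groups alone (0 to 1); without the 4 libraries the 1 was the other family. The 8 variants at weaning became 9 with the filter of 10 reads in 5 libraries, 5 without the 4 libraries and 0 under permutation (7 to 8). After co-housing 0 became 1 with DESeq2 and limma-voom. From weaning to co-housing in KO 6 became 8 with DESeq2, of which 1 was lower, 2 with limma-voom and without the 4 libraries, 3 with the contrast's groups alone, where fewer variants pass the filter, and 0 under permutation (5 to 6); in WT 0 became 1 without a filter and with DESeq2. The 4 changes became 5 with DESeq2, 3 without a filter, 1 with limma-voom and 2 without the 4 libraries (1 to 5). After re-separation 0 became 1 without a filter, with DESeq2 and with limma-voom (0 to 1). Beyond the filters, small sample sizes under permutation and left-out libraries, the cause was not tested.

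Over all features the counts moved too. At weaning 17 genera were called, with 0 to 27 under the alternatives, 8 families with 0 to 15, and 61 variants with 0 to 66. After co-housing 1 genus was called with 0 to 4, 0 families with 0 to 1 and 3 variants with 0 to 13; after re-separation 0 genera with 0 to 1 and 4 variants with 0 to 22. From weaning to co-housing in KO 23 genera were called with 0 to 28, 8 families with 0 to 13 and 79 variants with 0 to 80, and in WT 21 genera with 15 to 35 and 2 variants with 0 to 55. From co-housing to re-separation in KO 14 genera were called with 5 to 20 and 7 families with 4 to 13, and in WT 1 genus with 1 to 11 and 2 families with 2 to 10. The changes of the genotype difference covered 3 genera (1 to 8) and 18 variants (8 to 31) up to co-housing, and 13 genera (6 to 15) up to re-separation. No paired analysis was possible because the labels do not link libraries of the same mouse across times. In the shallowest library, of 10560 reads, a count of 0 allows a share of up to 0.0286%.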
